A study of Homo sapiens with 9 samples.

Results

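PC3 cells, an established human prostate cancer cell line derived from a bone metastasis, were profiled next to osteoblasts, the bone-forming cells, under conditions that differ in their supply of Wnt antagonists. The comparison described here pooled 2 co-cultures that the study groups as pro-invasive and set them against a co-culture that received sclerostin. The pro-invasive pool held 2 arrays of PC3 cells with osteoblasts of Sost knockout mice and no added protein (OB SostKO) and 2 arrays in which the osteoblasts were wild type and recombinant human DKK1 was added at 100 ng/ml (OB WT + rhDKK1). Opposite them stood 3 arrays in which wild type osteoblasts were combined with recombinant human sclerostin, also at 100 ng/ml (OB WT + rhSOST). Arrays were chosen by their labels alone, which gave 7 of the 9 arrays of the series; the 2 arrays of PC3 cells grown without osteoblasts were left out. RNA was taken after 48 h from PC3 cells that shared medium with the osteoblasts but did not touch them, and it was hybridized to the Affymetrix U133 Plus 2.0 array of human genes, on which a gene can be read by several sets of short probes. The osteoblasts came from the skull bones of newborn mice, the labels describe replicates as biological, and one cell line stands for the tumor throughout. Wild type osteoblasts were always given one of the proteins, so a co-culture with neither was not measured, and the 2 arms of the pro-invasive pool differ from the rhSOST arm in the osteoblast genotype, in the added protein or in both, so these factors cannot be told apart.

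Wnt proteins bind a Frizzled receptor together with the co-receptor LRP5 or LRP6 and keep β-catenin from being degraded, after which β-catenin enters the nucleus and switches on target genes with TCF/LEF factors. Sclerostin, the product of SOST, is made mainly by osteocytes in bone and blocks LRP5 and LRP6, with LRP4 as its anchor at the cell surface. DKK1 is another secreted antagonist, which binds LRP6 and Kremen receptors and is made in large amounts by some bone-seeking prostate tumors. Tumor cells that invade rebuild their actin skeleton, send out filopodia and loosen their junctions, and genes of these functions are among those the study put forward for the pro-invasive co-cultures.

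Values are log2 signals as deposited, so a difference of 1 is 2-fold, and every difference is the pro-invasive mean minus the rhSOST mean. Of 54675 probe sets, 62 are manufacturer's controls and 54613 were tested; 33625 of them had a value at or over their array's 40th percentile on at least 2 of the 7 arrays and are called kept. Of 14 measured markers listed for prostate epithelial cells, 12 were kept. KRT8, KRT18, EPCAM and VIM, which encode keratins, an epithelial adhesion protein and vimentin, were among the brightest of these. Their log2 values averaged 11.96, 13.36, 13.24 and 13.12 in the pro-invasive co-cultures and 11.94, 13.32, 13.22 and 13.03 with rhSOST. KRT5 and KLK2 were kept but much dimmer, and KRT14 and FOLH1 were not kept. Whether the listed markers single out PC3 cells was not tested. Spiked poly-A RNAs, hybridization controls and the 3′ minus 5′ signal of ACTB differed by -0.27, -0.09 and -0.40, and the exact permutation test over arrays gave two-sided p = 0.286, 0.343 and 0.171. The ACTB values were 1.32, 1.32, 1.19 and 0.99 on the pro-invasive arrays and 2.06, 1.44 and 1.32 on the rhSOST arrays, with the first rhSOST array highest and the third level with the OB SostKO arrays. For GAPDH the 3′ minus 5′ signal, which widens when RNA is degraded or incompletely copied, was 0.16, 0.18, 0.12 and 0.12 on the pro-invasive arrays and 0.19, 0.21 and 0.42 on the rhSOST arrays. The groups do not overlap there, with the third rhSOST array highest (two-sided exact permutation p = 0.0571, the smallest that 4 against 3 arrays allow).

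The third rhSOST array stood apart from the other 6. Of the kept probe sets, 866 were at least 2-fold below the median of the other 6 arrays on this array, against 49 on the second rhSOST array, 19 on the second rhDKK1 array, 13 on the first OB SostKO array and 0 on the other 3. Its correlation with the pro-invasive arrays over the kept probe sets was 0.983 to 0.988, while the first and second rhSOST arrays reached 0.9945 to 0.9976. The SD over the arrays of a group exceeded 0.5 for 125 kept probe sets in the pro-invasive pool and for 1133 with rhSOST, and it exceeded 1 for 0 and 174. For the members on which the results turn, values are given array by array, and differences that its removal moves by more than 1.5 times are also given without it for most of the genes named.

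**Figure D1:**
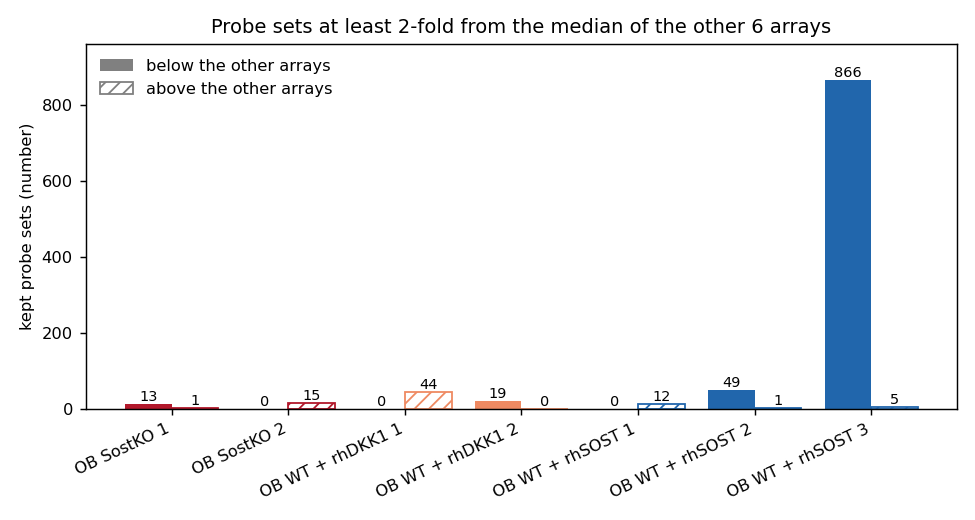
Number of kept probe sets (vertical axis) on each of the 7 arrays (horizontal axis) that lie at least 2-fold below (filled bars) or above (hatched bars) the median of the other 6 arrays. The third rhSOST array has 866 probe sets below, and no other array has more than 49.

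No probe set separated the pro-invasive co-cultures from the rhSOST co-culture after correction for the number of tests. Limma's moderated test called 0 of 54613 probe sets once p-values were adjusted after Benjamini-Hochberg (threshold 0.05), and the smallest adjusted p was 0.799. At an unadjusted p under 0.05, 1123 probe sets were higher (2.06%) and 1679 were lower (3.07%), 2802 in all (5.13%). If no probe set differed, about 2731 would be expected to pass this threshold, here and in each comparison of single arms below. After cyclic loess between the arrays 1457 were higher and 1199 lower. The 4 pro-invasive arrays lay wholly above the 3 rhSOST arrays for 963 probe sets (1.76%) and wholly below them for 1841 (3.37%), a split that became 1714 above and 1560 below after cyclic loess. Large differences ran one way: 47 probe sets were at least 2-fold higher in the pro-invasive mean (0.0861%) and 0 were at least 2-fold lower, and 10 of the 47 had an unadjusted p under 0.05 (0.0183%). Limma also called 0 probe sets between OB SostKO and rhSOST, between rhDKK1 and rhSOST and between OB SostKO and rhDKK1, with 1732 (3.17%), 1363 (2.5%) and 910 (1.67%) at an unadjusted p under 0.05; the first 2 of these comparisons share the rhSOST arrays. In single arms, 74 probe sets were at least 2-fold higher with OB SostKO than with rhSOST (0.135%) and 30 with rhDKK1 than with rhSOST (0.0549%), and 0 were 2-fold lower in either; between OB SostKO and rhDKK1 0 differed 2-fold.

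The 47 probe sets with the largest differences belong to 36 named genes, and their rhSOST values spread more widely than their pro-invasive values. LTN1, a ubiquitin ligase that clears stalled ribosomes, had the largest difference of all (probe set 233819_s_at): its log2 values were 7.82 and 8.04 with OB SostKO and 8.44 and 7.22 with rhDKK1, against 7.85, 6.61 and 4.73 with rhSOST. The first rhSOST array lay inside the pro-invasive range and the other 2 lay below it, so the groups overlap. The difference was 1.48 ± 0.63 (standard error, limma adjusted p = 0.799) and 0.65 without the third rhSOST array. At the brightest probe set of LTN1 it was 0.0042. ESCO1, which acetylates cohesin so that sister chromatids stay together, had 7.01, 7.05, 7.69 and 6.22 in the pro-invasive co-cultures and 7.24, 5.37 and 4.20 with rhSOST. PPFIBP1, a liprin found at sites of cell adhesion, had 6.79, 6.90, 7.25 and 6.30 in the pro-invasive co-cultures and 6.72, 5.32 and 4.26 with rhSOST. In both genes the first rhSOST array again fell within the pro-invasive range and the third was the lowest of all 7, and the differences of 1.39 and 1.38 became 0.69 and 0.79 without it. LTN1, OSBPL8, MALAT1, DYNC1H1, CDC27, MET, EZR at 208621_s_at, THRAP3 and DSC2 were singled out after their values had been seen.

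The same order of arrays ran through nearly all of these probe sets. The third rhSOST array was below the second and the second below the first in 46 of the 47, the first lay within the pro-invasive range in 42, the second lay below that range in 45 and the third in all 47. Relative to the pro-invasive median of each probe set, the median over the 47 was 0.08 on the first rhSOST array, -1.22 on the second and -2.59 on the third. The second rhDKK1 array deviated in the same direction: it was the lowest of the 4 pro-invasive arrays in 45 of the 47, with a median of -0.75. MALAT1, a long noncoding RNA of nuclear speckles, was read by 5 of the 47 probe sets, and at 223940_x_at it had 8.83, 8.79, 8.98 and 7.67 in the pro-invasive co-cultures and 8.34, 7.31 and 5.93 with rhSOST. OSBPL8, a lipid transfer protein of the endoplasmic reticulum, had 9.14, 9.31, 9.51 and 8.39 in the pro-invasive co-cultures and 9.49, 7.74 and 5.95 with rhSOST. The differences of MALAT1 and OSBPL8 were 1.38 and 1.36, or 0.74 and 0.47 without the third rhSOST array. DYNC1H1, the heavy chain of the motor protein dynein, had a difference of 1.30 and CDC27, a subunit of the anaphase-promoting complex, one of 1.20. Without the third rhSOST array these became 0.44 and 0.55, and no probe set of any gene was then 2-fold higher; without the first rhSOST array 293 were.

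**Figure D2:**
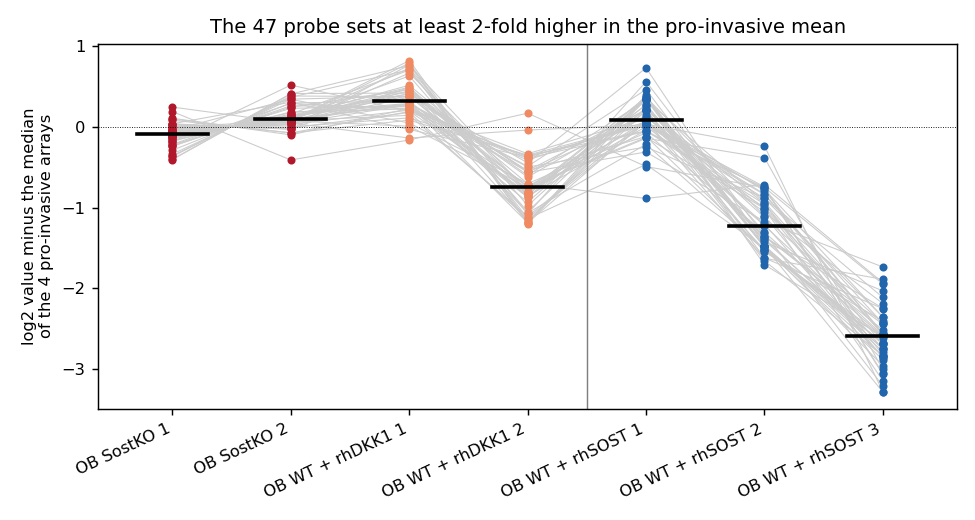
Log2 value minus the median of the 4 pro-invasive arrays (vertical axis) for the 47 probe sets that were at least 2-fold higher in the pro-invasive mean, by array (horizontal axis). Each point is a probe set, grey lines join its values and black bars are medians: 0.08, -1.22 and -2.59 on the 3 rhSOST arrays, and -0.75 on the second rhDKK1 array.

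Of the 47 probe sets, 2 had pro-invasive arrays wholly above the rhSOST arrays, which 1.82% of the kept probe sets had (4.5% lay wholly below). MZT1, a small protein that recruits γ-tubulin to spindle poles, had 6.43, 6.81, 6.52 and 5.77 in the pro-invasive co-cultures and 5.59, 5.76 and 4.55 with rhSOST (difference 1.09 ± 0.32, limma adjusted p = 0.799). The second rhDKK1 array exceeded the second rhSOST array by little there. HSP90B1, a chaperone of the endoplasmic reticulum read by a probe set that can match related sequences (216450_x_at), had 8.38, 7.78, 8.03 and 8.36 in the pro-invasive co-cultures and 7.70, 7.44 and 6.25 with rhSOST. Without the third rhSOST array the differences of MZT1 and HSP90B1 were 0.71 and 0.57, against 1.09 and 1.01 with it. The next largest non-overlapping differences, of PHF3, which binds RNA polymerase II, MED18, a Mediator subunit, and PRPS2, an enzyme of nucleotide synthesis, were 0.96, 0.94 and 0.92. They were 0.44, 0.16 and 0.17 without the third rhSOST array, on which all of them were lowest.

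Other probe sets of the same genes mostly gave differences near 0. All 36 genes have another kept probe set, 84 in all, and the median difference over those 84 was -0.01; 59 of them differed by less than 0.2 in either direction. EZR, which encodes ezrin, the protein that ties actin filaments to the membrane of filopodia and microvilli, is read by 5 probe sets. Its brightest, 208623_s_at, had 11.31, 11.27, 11.22 and 11.27 in the pro-invasive co-cultures and 11.21, 11.30 and 11.40 with rhSOST. At 208621_s_at the values were 9.53, 9.67, 9.88 and 9.04 in the pro-invasive co-cultures and 9.72, 8.59 and 6.85 with rhSOST. The order of the rhSOST arrays is thus opposite at the 2 probe sets, and the differences were -0.04 and 1.15, the second of which became 0.38 without the third rhSOST array. MALAT1 was among the exceptions, with 1.27 at its brightest probe set, though it had 0.18 at 223578_x_at and -0.15 at 224558_s_at. Further exceptions were FAM111B with 0.84 at 1557128_at and HSP90B1 with 0.41 at 216449_x_at. ZFR had 0.97 at 33148_at but 0.02 at 201857_at. MET, the receptor of hepatocyte growth factor, had 7.80, 7.94, 8.01 and 6.76 in the pro-invasive co-cultures and 7.95, 6.66 and 5.02 with rhSOST at 213816_s_at. Its difference was 1.08 there, or 0.32 without the third rhSOST array, and -0.03 at its brightest probe set. Within THRAP3, a splicing factor, the difference was 1.10 at 222439_s_at, -0.21 at 222440_s_at and -0.07 at 217847_s_at. Within DSC2, a desmosomal cadherin, it was 1.12 at 204750_s_at, -0.24 at 231033_at, -0.13 at 226817_at and 0.02 at 204751_x_at. Probe sets with the suffix _s_at made up 53.2% of the 47 and 26.7% of all kept probe sets, and the median length of the genes was 71.5 kb against 34.2 kb; these are descriptions, and what sets the probe sets apart was not tested. Where the brightest probe set stood for each of 19775 genes, 3 genes were at least 2-fold higher and the groups did not overlap for 220 genes above (1.11%) and 927 below (4.69%).

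Among probe sets whose groups do not overlap, the 10 genes with the smallest p in each direction had differences between 0.24 and 0.61 in size. OSBPL7, a lipid transfer protein of the oxysterol-binding family, had the smallest p of all: 7.74, 7.75, 7.65 and 7.75 in the pro-invasive co-cultures against 8.27, 8.01 and 8.27 with rhSOST (difference -0.45 ± 0.08, limma adjusted p = 0.799). The pro-invasive arrays lay close together, and the second rhSOST array was the nearest to them. HNRNPD, which binds AU-rich elements and governs the decay of many mRNAs, had 7.12, 7.03, 7.05 and 7.17 in the pro-invasive co-cultures and 7.41, 7.51 and 7.87 with rhSOST. STK36, a kinase linked to Hedgehog signaling, had 7.23, 7.25, 7.30 and 7.36 in the pro-invasive co-cultures and 7.60, 7.57 and 7.75 with rhSOST. CNP, ACP6, ENGASE, TAF1C and TYSND1, which encode a cyclic nucleotide phosphodiesterase, a lipid phosphatase, a deglycosylating enzyme, a factor of RNA polymerase I and a peroxisomal protease, had differences of -0.42, -0.38, -0.37, -0.32 and -0.36. HERC2P7, a pseudogene whose probe set may also match HERC2, had -0.37, and PSORS1C1 had -0.28. OSBPL7, HERC2P7, ENGASE, PSORS1C1 and TAF1C are read here by their brightest probe set itself, so these 5 have no second reading there. At the brightest probe sets of CNP, ACP6, STK36, HNRNPD and TYSND1 the differences were -0.12, -0.10, -0.21, -0.02 and -0.19.

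Among genes whose pro-invasive arrays lay above, RBBP9, a serine hydrolase that binds the retinoblastoma protein, had the smallest p: 6.14, 6.03, 6.06 and 5.91 in the pro-invasive co-cultures against 5.75, 5.61 and 5.61 with rhSOST (difference 0.38 ± 0.07, limma adjusted p = 0.799). UHMK1, a kinase of RNA-binding proteins, had 6.60, 6.86, 6.74 and 6.38 in the pro-invasive co-cultures and 6.09, 6.15 and 5.87 with rhSOST, and SMAD5, which carries BMP signals to the nucleus, had 7.20, 6.66, 6.80 and 6.87 in the pro-invasive co-cultures and 6.34, 6.44 and 6.36 with rhSOST. The 3 rhSOST arrays of these genes lay close together, with SDs of 0.08, 0.15 and 0.05. Choosing genes by non-overlap and the smallest p favors such narrow groups, so their spread cannot be set against that of the 2-fold group. TAPBP, ATP7A, CALU and CREB1, which encode a chaperone of antigen presentation, a copper transporter, a calcium-binding protein of the secretory pathway and a transcription factor of cAMP signaling, had differences of 0.29, 0.39, 0.31 and 0.28, and EZR at 217230_at had 0.39. The brightest probe set had the opposite sign in 6 of these 10 genes, RBBP9, UHMK1, TAPBP, CALU, CREB1 and EZR, with -0.07, -0.06, -0.34, -0.10, -0.12 and -0.04. For SMAD5 it differed by 0.20, and the groups overlap there.

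CXCL8, the neutrophil chemokine interleukin 8, was another of these 10 genes. Its log2 values at 211506_s_at were 11.02, 11.08, 11.03 and 11.02 in the pro-invasive co-cultures and 10.81, 10.80 and 10.79 with rhSOST. Both groups were narrow, with SDs of 0.03 and 0.01, and the difference was 0.24 ± 0.05 (limma adjusted p = 0.799). The brighter probe set 202859_x_at had 12.78, 12.85, 12.84 and 12.79 in the pro-invasive co-cultures and 12.77, 12.74 and 12.83 with rhSOST, where the groups overlap. The promoters of CXCL8 and EZR are printed because they are the ones that hold a searched motif among the 9 of these 10 genes with a promoter sequence; of the 9 promoters found for the 10 genes below, 2 hold the AP-1 letters. Both run from 250 bases before to 50 after the start site (RefSeq, GRCh38.p14), CXCL8 at chr4:73740319-73740618 on the plus strand and EZR at chr6:158818186-158818485 on the minus strand, and capitals mark the TCF/LEF letters ATCAAAG, the AP-1 letters TGACTCA and the NF-κB letters GGAATTTCC, each searched on both strands with no overlap between them.
CXCL8 promoter: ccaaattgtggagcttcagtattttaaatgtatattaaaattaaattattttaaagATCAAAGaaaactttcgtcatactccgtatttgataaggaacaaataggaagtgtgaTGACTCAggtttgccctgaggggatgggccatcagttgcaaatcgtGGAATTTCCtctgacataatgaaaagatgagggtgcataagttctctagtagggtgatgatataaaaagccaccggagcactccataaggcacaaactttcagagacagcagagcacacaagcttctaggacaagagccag
EZR promoter: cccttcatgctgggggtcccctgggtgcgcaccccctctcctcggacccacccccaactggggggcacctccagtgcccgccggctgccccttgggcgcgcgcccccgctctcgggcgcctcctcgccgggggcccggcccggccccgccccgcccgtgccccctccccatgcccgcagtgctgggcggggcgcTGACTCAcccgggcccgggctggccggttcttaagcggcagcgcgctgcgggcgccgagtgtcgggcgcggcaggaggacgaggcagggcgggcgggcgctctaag
The CXCL8 promoter holds the TCF/LEF letters from position -194, the AP-1 letters from -137 and the NF-κB letters from -91, and the EZR promoter the AP-1 letters from -56. Of 35116 promoters of this length, 2.62% hold the TCF/LEF letters, 4.95% the AP-1 letters and 0.461% the NF-κB letters. A match of letters is not a measured binding site.

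**Figure D3:**
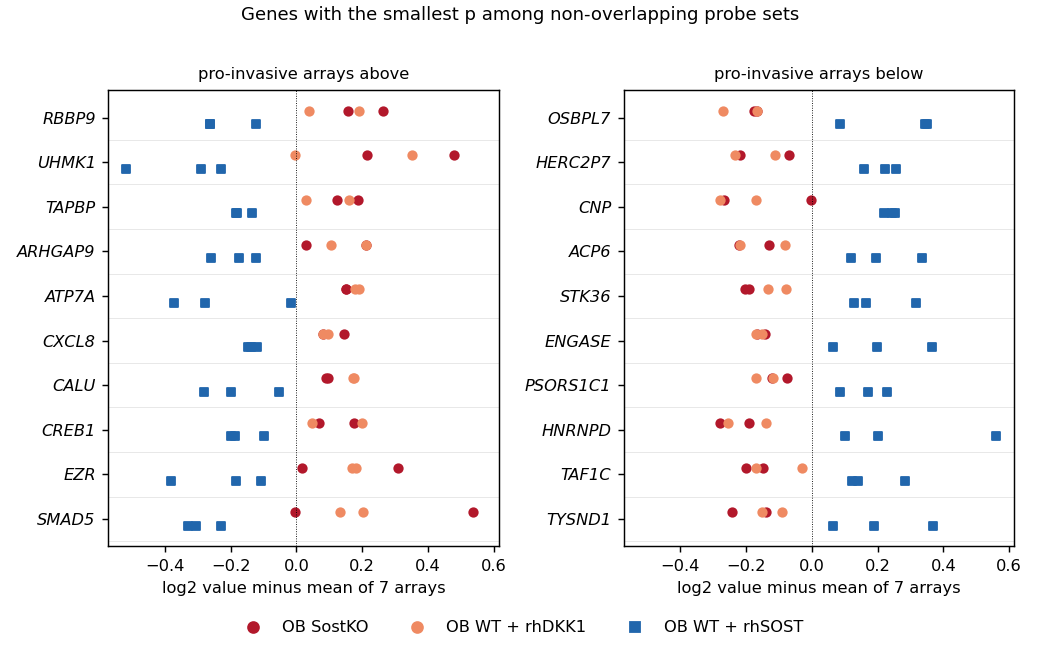
Log2 value minus the mean of the 7 arrays (horizontal axis) for the genes with the smallest p among probe sets whose groups do not overlap, 10 with the pro-invasive arrays above (left) and 10 below (right). Circles are single OB SostKO and rhDKK1 arrays and squares single rhSOST arrays; CXCL8, for example, has a difference of 0.24.

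The largest non-overlapping differences below were smaller than those above and widest on the third rhSOST array. KIFC2, a kinesin motor, had 6.93, 7.36, 7.44 and 7.11 in the pro-invasive co-cultures and 7.90, 7.46 and 8.67 with rhSOST (difference -0.80 ± 0.26, limma adjusted p = 0.799). TPM2, a tropomyosin that stiffens actin filaments, had 5.97, 6.56, 6.60 and 6.38 in the pro-invasive co-cultures and 6.92, 6.67 and 7.33 with rhSOST. LCAT, which esterifies cholesterol in plasma, had 5.65, 6.02, 5.85 and 5.86 in the pro-invasive co-cultures and 6.48, 6.10 and 6.58 with rhSOST. The second rhSOST array was the closest to the pro-invasive range in all of these, and without the third the differences were -0.47, -0.42 and -0.45. PHF1, a partner of the Polycomb complex, had -0.53, or -0.36 without that array.

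The antagonists themselves and their receptors differed by less than 0.5 in the RNA of PC3 cells. The DKK1 transcript, among the brightest of the array, lay between 13.89 and 13.95 on the 4 pro-invasive arrays and between 13.90 and 13.96 on the 3 rhSOST arrays, and its mean difference was -0.0038 ± 0.053. Added protein is not read by the array. The SOST transcript had 3.07, 3.22, 3.06 and 3.25 in the pro-invasive co-cultures and 3.35, 3.25 and 3.35 with rhSOST and was not kept. LRP5 at 209468_at had 7.45, 8.10, 8.34 and 7.26 in the pro-invasive co-cultures and 8.32, 7.87 and 8.59 with rhSOST. Its pro-invasive arrays spread over more than 1 log2 unit and overlap with rhSOST (difference -0.47 ± 0.28, limma adjusted p = 0.799; -0.30 without the third rhSOST array). LRP6 at 225745_at had 7.81, 7.86, 7.96 and 8.01 in the pro-invasive co-cultures and 7.96, 8.12 and 8.24 with rhSOST, a difference of -0.20 (-0.13 without the third rhSOST array), while its other 2 probe sets differed by 0.19 and 0.20. LRP4 differed by -0.22 with no overlap, through 5.76 on the first OB SostKO array and 6.29 to 6.33 on the other pro-invasive arrays, against 6.37, 6.43 and 6.38 with rhSOST. The Kremen receptor KREMEN1 differed by 0.07 and AXIN2, a target gene used as a gauge of β-catenin activity, by -0.08, and for both the groups overlap.

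The genes of the Wnt pathway were counted as lists against the share of all kept probe sets, 2.21% higher and 4.08% lower at an unadjusted p under 0.05, with a median difference of -0.02. Of 50 kept probe sets of Wnt ligands and receptors, 3 were higher and 2 lower, with a median of -0.01. RYK and FZD5, which encode Wnt receptors, had 0.24 and 0.15, and the ligand WNT7B had -0.19. At the brightest probe sets of RYK and FZD5 the differences were 0.02 and 0.05, while WNT7B was read by its brightest. Of 65 probe sets of the β-catenin machinery, which covers the destruction complex and the nuclear partners of β-catenin, 2 were higher and 7 lower, with a median of -0.08. The smallest p belonged to nuclear partners: BCL9, a coactivator of β-catenin, had 6.93, 7.01, 7.01 and 6.95 in the pro-invasive co-cultures and 7.20, 7.17 and 7.22 with rhSOST, a difference of -0.22 ± 0.05 (limma adjusted p = 0.799). TCF7L2, a DNA-binding partner of β-catenin, had 10.51, 10.64, 10.54 and 10.60 in the pro-invasive co-cultures and 10.70, 10.81 and 10.82 with rhSOST, and PYGO1, another coactivator, differed by -0.25. All 3 had pro-invasive arrays wholly below the rhSOST arrays, as had 5 of the 65 and 4.5% of all kept probe sets. Their differences without the third rhSOST array were -0.21, -0.18 and -0.35. BCL9 and TCF7L2 were read by their brightest probe sets, while PYGO1 differed by -0.01 at its brightest, where the groups overlap. CTNNB1, the gene of β-catenin, differed by -0.16 at 223679_at and by 0.05 at its brightest probe set. Its remaining probe set differed by 0.51 ± 0.34, the largest difference of this list, but the groups overlap there. The values were 7.82, 8.18, 8.14 and 8.21 in the pro-invasive co-cultures and 7.66, 8.42 and 6.67 with rhSOST. The second rhSOST array was thus the highest and the third the lowest. Of 55 probe sets of Wnt target genes 3 were higher and 0 lower, with a median of -0.02: BIRC5, which encodes survivin, had 0.27, JUN 0.46 and the hyaluronan receptor CD44 0.20, which became 0.24, 0.23 and 0.13 without the third rhSOST array. JUN, a subunit of AP-1, had 6.43, 6.16, 6.18 and 5.96 in the pro-invasive co-cultures and 6.06, 5.85 and 5.25 with rhSOST, so the groups overlap. At the brightest probe sets of BIRC5, JUN and CD44 the differences were -0.03, 0.06 and -0.05. None of 11 probe sets of secreted Wnt inhibitors had an unadjusted p under 0.05.

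Genes of the actin skeleton, adhesion and invasion were counted in the same way. Of 153 kept probe sets of actin and filopodia genes, 8 were higher and 3 lower at an unadjusted p under 0.05, with a median of -0.01. RDX, which encodes radixin, a relative of ezrin, had 8.41, 8.35, 8.43 and 8.32 in the pro-invasive co-cultures and 8.18, 8.12 and 7.90 with rhSOST (difference 0.31 ± 0.08, limma adjusted p = 0.799). RHOA, the GTPase that drives stress fibers, had 11.53, 11.59, 11.68 and 11.81 in the pro-invasive co-cultures and 11.15, 11.50 and 11.34 with rhSOST. For both the groups do not overlap, while the brightest probe sets of RDX and RHOA differed by -0.01 and 0.03. Cell-cell junction genes had 1 higher and 5 lower of 71 probe sets and cell-matrix adhesion genes 4 higher and 1 lower of 86, with medians of -0.03 and -0.02. The integrin gene ITGB4 differed by 0.31 at 211905_s_at and by -0.52 at its brightest probe set. Regulators of the epithelial to mesenchymal transition had 0 higher and 1 lower of 35: S100A4, a calcium-binding protein of motile cells, differed by -0.14, and ZEB1, a repressor of epithelial genes, had 7.17, 7.41, 7.45 and 6.85 in the pro-invasive co-cultures and 7.22, 6.54 and 5.50 with rhSOST, the array order of the 2-fold group; its difference was 0.80, or 0.34 without the third rhSOST array. Proteases of invasion had 1 higher and 2 lower of 57; MMP16, a membrane-bound matrix metalloproteinase, differed by -0.33 and RECK, an inhibitor of such proteases, by -0.25. These are counts, and no set test was made.

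**Figure D4:**
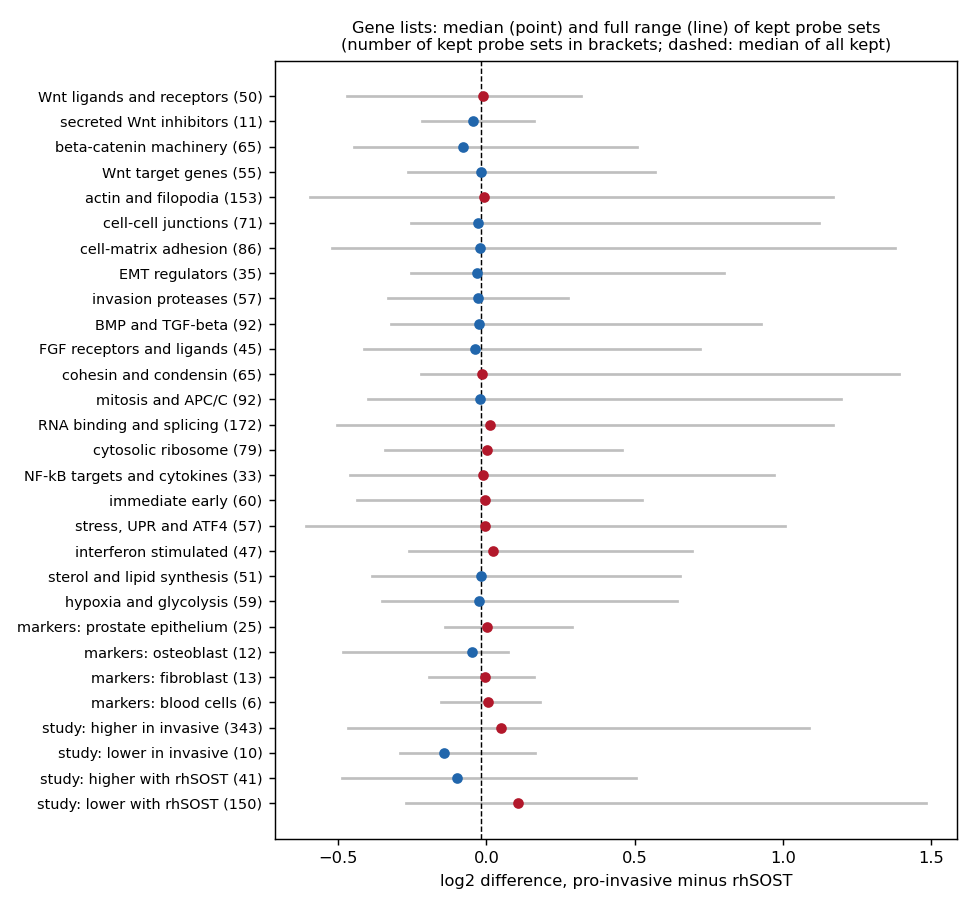
Difference on the log2 scale, pro-invasive minus rhSOST (horizontal axis), for the kept probe sets of each gene list (vertical axis). Points are list medians (red above and blue below the median of all kept), lines run from the lowest to the highest probe set and the dashed line is the median of all kept probe sets, -0.02; textbook lists have medians from -0.08 to 0.02.

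Signaling lists outside the Wnt pathway were counted at an unadjusted p under 0.05, which 6.28% of all kept probe sets had in either direction. BMP and TGF-β genes had 2 higher and 3 lower of 92 probe sets (5.43%); SKI, a repressor of SMAD proteins, had 10.53, 10.81, 10.82 and 10.68 in the pro-invasive co-cultures and 11.16, 10.88 and 11.05 with rhSOST, and LTBP2, a matrix protein related to TGF-β binding proteins, differed by -0.22. FGF ligands and receptors had 0 higher and 3 lower of 45 (6.67%), the ligands FGF1 with -0.23 and FGF18 with -0.25 and the transcription factor ETV5, a target of FGF signaling, with -0.21. For SKI, LTBP2, FGF1, FGF18 and ETV5 the pro-invasive arrays lay wholly below the rhSOST arrays, as for 4.5% of all kept probe sets. This held for 4 of the 92 BMP and TGF-β probe sets and 3 of the 45 FGF probe sets. FGF18 differed by -0.05 at its brightest probe set, where the groups overlap. NF-κB targets and cytokines had 2 higher and 3 lower of 33 (15.2%): beside CXCL8, the chemokine gene CXCL5 had 7.33, 7.46, 7.61 and 7.41 in the pro-invasive co-cultures and 7.38, 6.72 and 5.35 with rhSOST, and TNFAIP2, which is induced by tumor necrosis factor, differed by -0.46. Immediate early genes had 6 higher and 0 lower of 60 (10%), among them GADD45B with 0.25, which had 0.06 at its brightest probe set. KLF6, a zinc-finger transcription factor of the same list, had 10.28, 10.01, 10.16 and 10.27 in the pro-invasive co-cultures and 9.84, 10.04 and 9.39 with rhSOST. The groups overlap there through the second rhSOST array. Without the third rhSOST array the differences of CXCL5, TNFAIP2, KLF6 and ETV5 were 0.40, -0.28, 0.24 and -0.13, against 0.97, -0.46, 0.42 and -0.21 with it.

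RNA-binding and splicing genes had 7 higher and 10 lower of 172 probe sets (9.88%, against 6.28% of all kept), with a median of 0.01. HNRNPA1, an abundant splicing regulator, had 7.81, 7.72, 7.58 and 7.71 in the pro-invasive co-cultures and 8.08, 7.93 and 8.19 with rhSOST, and TRA2A, another splicing factor, had 5.30, 5.14, 5.03 and 5.22 in the pro-invasive co-cultures and 4.69, 4.98 and 4.65 with rhSOST. The groups do not overlap for either gene, in opposite directions, and the brightest probe sets differed by -0.07 in both. Cohesin and condensin genes had 2 higher and 0 lower of 65, STAG2 with 0.55 and RAD21 with 0.81, both subunits of cohesin, which became 0.22 and 0.34 without the third rhSOST array. Mitosis genes had 3 higher and 2 lower of 92, ribosomal protein genes 0 higher and 2 lower of 79, stress response genes 4 higher and 1 lower of 57, interferon-stimulated genes 1 higher and 0 lower of 47, sterol and lipid genes 1 higher and 2 lower of 51, and hypoxia and glycolysis genes 3 higher and 1 lower of 59. RPS24, a protein of the small ribosomal subunit, differed by -0.34 at 1555878_at and by 0.0044 at its brightest probe set. CALR and DNAJC3, which act in protein folding, differed by -0.26 and 0.49, or by -0.24 and 0.24 without the third rhSOST array. At its brightest probe set DNAJC3 differed by 0.0042.

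The genes named by the study for the pro-invasive co-cultures are given at the probe set with the smallest p and at the brightest one. The study chose them on these arrays, by comparison with PC3 cells grown alone. Its longer list for the pro-invasive co-cultures, to which it refers for CRIM1, also leaves out transcripts that changed significantly with rhSOST. CRIM1, a transmembrane regulator of BMP signaling, had 10.12, 10.20, 10.16 and 10.06 in the pro-invasive co-cultures and 10.17, 9.85 and 8.67 with rhSOST at 228496_s_at. The first rhSOST array lay inside the pro-invasive range, and the difference of 0.57 ± 0.30 (limma adjusted p = 0.799) became 0.12 without the third. At the other 2 probe sets of CRIM1 the differences were 0.09 and -0.06. MYO10, a myosin that carries cargo to filopodial tips, had 9.22, 9.25, 9.19 and 9.27 in the pro-invasive co-cultures and 9.01, 8.75 and 7.26 with rhSOST at 216222_s_at. MYO10 was the one gene of these 6 whose groups do not overlap (difference 0.89 ± 0.36, limma adjusted p = 0.799), and its other 4 probe sets differed by -0.16 to 0.14. SEPTIN7, a filament-forming GTPase, had 6.87, 6.94, 6.87 and 6.12 in the pro-invasive co-cultures and 6.72, 6.49 and 3.87 with rhSOST, and PKP4, a plakophilin of cell junctions, had 8.90, 8.96, 8.87 and 8.37 in the pro-invasive co-cultures and 8.99, 7.98 and 6.94 with rhSOST. The actin-binding protein CNN3 and the growth factor receptor FGFR2 differed by 0.67 and 0.30. Without the third rhSOST array the differences of SEPTIN7, PKP4, CNN3, FGFR2 and MYO10 were 0.09, 0.29, 0.05, 0.02 and 0.35, and at the brightest probe sets -0.12, -0.06, -0.04, 0.05 and -0.16.

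**Figure D5:**
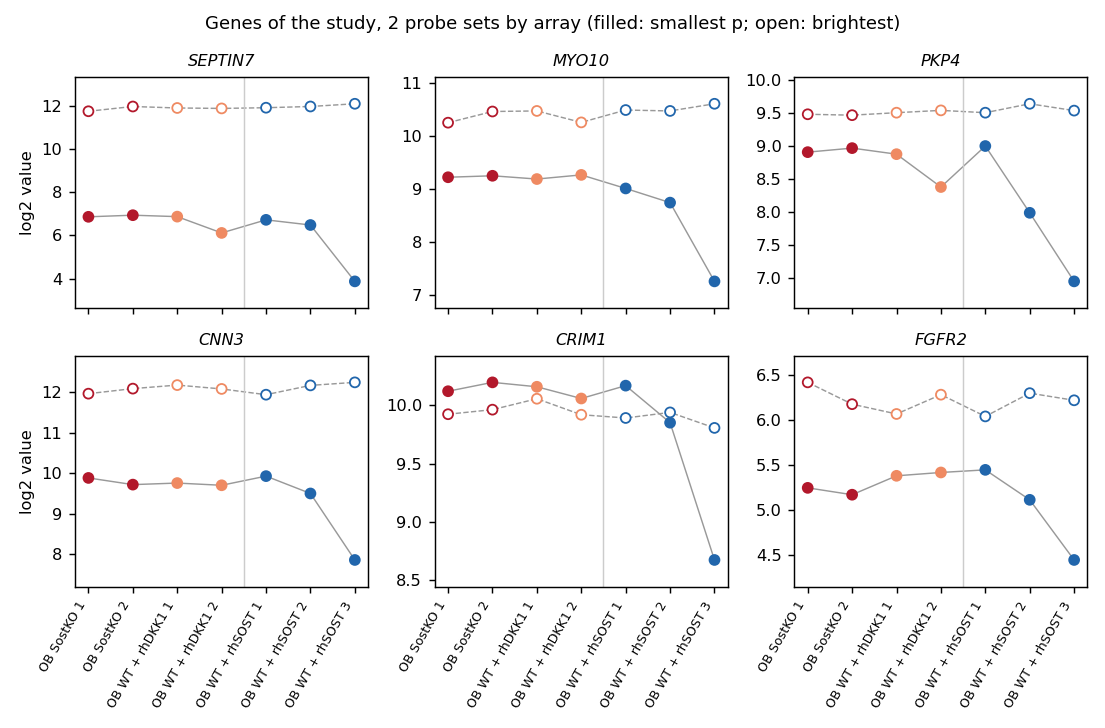
Log2 value (vertical axis, a scale for each gene) by array (horizontal axis) for 6 genes named by the study. Filled points are the probe set with the smallest p and open points the brightest probe set; at the filled probe sets the third rhSOST array is the lowest, and at the brightest probe sets the mean differences lie between -0.16 and 0.09.

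Longer lists that the study drew from these arrays rest on another comparison, each co-culture against PC3 cells grown alone, whose arrays are left out here. The study's lists for the pro-invasive co-cultures leave out transcripts that also changed significantly with rhSOST. Its rhSOST lists leave out those that changed significantly in the pro-invasive co-cultures. Membership thus favors a difference between the groups compared here. The lists also share the co-culture arrays, so they are not independent evidence of a direction and are given as counts. Of all kept probe sets, 2.21% were higher and 4.08% lower at an unadjusted p under 0.05, and 0.14% were at least 2-fold higher. Their median difference was -0.02. Genes listed as higher in the pro-invasive co-cultures had a median difference of 0.05 over 343 kept probe sets, with 22 higher, 8 lower and 4 at least 2-fold higher. Genes listed as lower with rhSOST had a median of 0.11 over 150 probe sets, with 18 higher and 4 lower, and 15 of the 47 probe sets at least 2-fold higher came from 14 of these genes. UGCG, which makes glucosylceramide, is also on a list of the study but was less than 2-fold higher. It had 10.10, 9.83, 10.07 and 9.84 in the pro-invasive co-cultures and 9.81, 9.35 and 8.87 with rhSOST. Its difference was 0.62, or 0.38 without the third rhSOST array, and -0.02 at its brightest probe set. Genes listed as higher with rhSOST had a median of -0.10 over 41 probe sets, and those listed as lower in the pro-invasive co-cultures -0.14 over 10.

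Markers of other cells were read with human probes, and the osteoblasts were murine. Of 14 measured osteoblast markers 6 were kept, and the log2 of the summed signal over the list was 10.21 to 10.46 on the pro-invasive arrays and 10.55 to 10.83 on the rhSOST arrays. The groups do not overlap. Nor do they for COL1A1, the chain of type I collagen, at 1556499_s_at: 8.68, 9.03, 9.09 and 9.13 in the pro-invasive co-cultures against 9.32, 9.31 and 9.77 with rhSOST. RUNX2 was about as bright, with 8.62, 9.03, 8.99 and 8.93 in the pro-invasive co-cultures and 8.96, 9.16 and 9.16 with rhSOST. It differed by -0.20, and its groups overlap. IBSP, PHEX, MEPE and PTH1R were also kept and differed by -0.02, 0.005, -0.10 and -0.04. SP7, SPP1, ALPL, COL1A2 and SPARC, which osteoblasts express strongly, were not kept. For 10 fibroblast markers, 8 of them kept, the sum was 11.68 to 11.87 on the pro-invasive arrays and 11.91 to 11.99 on the rhSOST arrays, through COL6A3, a chain of type VI collagen, with a difference of -0.19; COL3A1 also had -0.19. Epithelial markers summed to 15.50 to 15.55 on the pro-invasive arrays and 15.46 to 15.53 on the rhSOST arrays, and blood cell markers, 3 of 7 kept, to 7.76 to 7.90 on the pro-invasive arrays and 7.79 to 7.94 on the rhSOST arrays. PC3 cells were the only human cells in these cultures, so these sums cannot be read as numbers of human osteoblasts, fibroblasts or blood cells. Whether mouse RNA added to the signals was not tested, nor was the part of these markers in the other differences.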

How the data were processed

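Each sample was one Affymetrix U133 Plus 2.0 array of PC3 RNA. The deposited values are log2 signals that the authors made with RMA, which corrects background, equalizes the arrays and summarizes each probe set; its software version is not given in the sources used here. Groups came from the labels. All 54613 probe sets other than manufacturer's controls were fitted in R 4.3.3 with limma 3.58.1 (lmFit, eBayes), 4 pro-invasive arrays against 3 rhSOST arrays, with Benjamini-Hochberg adjustment over all of them. The number of arrays limits the precision, and no counts underlie the values. Symbols came from the platform annotation, updated to RefSeq GRCh38.p14: 41091 probe sets have 1 symbol, 1801 several and 11721 none. Single control values were compared with exact permutation tests over arrays. The comparison, the gene lists and the genes to be named were chosen with earlier results of these data known. Named are, among kept non-overlapping probe sets with 1 symbol, the 10 with the smallest p and the 5 with the largest difference in each direction, genes the study names, the added proteins with their receptors, AXIN2 and up to 3 genes of each list by p. The value of 1 gene so named is not reported here. The fit was tested on simulated data. Alternatives were 2 filters, cyclic loess, fits with a mean for each of 3 co-culture groups or for 4 groups over all 9 arrays, array weights, a robust trend fit, a replicate block, the brightest probe set of each gene, other folds, the methods' ANOVA with Tukey's comparisons and leaving out each array.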

Additional observations from a re-analysis of the deposited data

Results flagged for a closer look

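Among 92 groups of 4 pro-invasive values looked at, 9 held an array far from the other 3 by Dixon's criterion, where chance gives about 5%. The second rhDKK1 array was that array for SEPTIN7 at 6.118, PKP4 at 8.373, MALAT1 at 7.669 and MET at 6.758, in each of which it was the lowest of the 4. It was also the lowest for COL3A1 at 4.924 and the highest for the hybridization controls at 10.58. The first OB SostKO array stood apart for LRP4, low at 5.764, and for PRPS2, high at 10.45. The first rhDKK1 array stood apart for OSBPL7, low at 7.652. All values are log2 signals.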

How the results depend on the processing

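No alternative fit of limma called a probe set, and none of the 88 named probe sets had an adjusted p under 0.05 under any alternative (smallest 0.543), while 52 kept their direction under every one. The methods' ANOVA after Benjamini-Hochberg adjustment called 1 probe set, MCOLN3, where OB SostKO alone stood apart. It had 4.81, 4.81, 4.66 and 4.66 in the pro-invasive co-cultures and 4.66, 4.66 and 4.65 with rhSOST. All of these lay under the 40th percentile of their arrays, 4.82 to 4.91. The value was identical on both rhDKK1 arrays and the first 2 rhSOST arrays, so the ANOVA rests on very little spread.

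The counts of probe sets at an unadjusted p under 0.05, 1123 higher and 1679 lower, depended on which probe sets entered. With the filters at the 40th and 60th percentile 646 and 383 were higher, and with the brightest probe set of each gene 221 were higher and 944 lower. A further 1.5-fold or 2-fold threshold left 109 or 10 higher and 3 or 0 lower, and Tukey's comparisons against both arms 47 higher and 130 lower. The 10 that were also 2-fold higher became 6 with the stricter filter, 6 with 3 group means, 22 with array weights, 3 with the robust trend fit and 0 with the brightest probe sets, where 3 instead of 47 were 2-fold higher at any p. Non-overlapping probe sets above, 963 against 1841 below, became 611 and 432 with the filters, 1714 against 1560 below with cyclic loess, and 220 against 927 below with the brightest probe sets. The cause was not tested.

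With one array left out, 860 (without the second OB SostKO array) to 2688 (without the first rhSOST array) were higher at an unadjusted p under 0.05, and 829 (without the third rhSOST array) to 2345 (without the second) were lower. Both 2-fold counts were 0 without the third rhSOST array and highest without the first, 286 with an unadjusted p under 0.05 and 293 at any p, and the 2-fold lower counts were 0 to 1. Non-overlapping probe sets numbered 1548 to 3819 above and 2612 to 5495 below, since fewer arrays overlap less. SDs over 0.5 numbered 111 to 175 in the pro-invasive co-cultures and 272 (without the third array) to 1627 (without the second) with rhSOST. Limma called 0 to 0 probe sets in the pooled comparison and in each of the 3 comparisons of single groups. The control differences ran from -0.40 to -0.08 for poly-A RNAs, -0.15 to -0.03 for hybridization controls, -0.54 to -0.17 for ACTB and -0.17 to -0.06 for GAPDH.

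Replicate numbers are shared between groups, but same-numbered arrays did not consistently deviate together: r was -0.541 between OB SostKO and rhDKK1, and -0.15 to 0.428 between either arm and rhSOST. With the replicate block, in which the third rhSOST array has no partner, limma called 0 probe sets, 865 were higher and 702 lower at an unadjusted p under 0.05, and 0 were 2-fold higher with or without that p. A crossed replicate block, chosen after seeing the data, also called 0.

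At the brightest probe set the difference turned negative for RBBP9, UHMK1, TAPBP, CALU, CREB1, EZR, MZT1, PHF3, PRPS2, SEPTIN7, MYO10, PKP4, CNN3, KREMEN1, BIRC5, CD44, RDX, ITGB4, PPFIBP1, ZEB1, STAG2, RAD21, ESCO1, TRA2A, CXCL5, KLF6, UGCG, OSBPL8, MET, DYNC1H1 and CDC27, with values in that order of -0.068, -0.059, -0.34, -0.098, -0.12, -0.036, -0.13, -0.026, -0.037, -0.12, -0.16, -0.062, -0.039, -0.071, -0.032, -0.050, -0.0082, -0.52, -0.11, -0.072, -0.20, -0.058, -0.078, -0.068, -0.031, -0.11, -0.019, -0.13, -0.034, -0.25 and -0.081; it turned positive for CTNNB1 (0.049), RECK (0.036) and RPS24 (0.0044). The DKK1 difference turned positive with array weights (0.011) and with the replicate block (0.015), and it ran from -0.014 to 0.015 with single arrays left out.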
